A study of Phaffia rhodozyma with 6 samples.

Results

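The genes described here are 115 of the 6249 genes of *Phaffia rhodozyma*, a basidiomycete yeast, that the expression table places on the KEGG maps for autophagy, mitophagy or the peroxisome. A gene was taken as a member if its KEGG column named at least 1 of these 3 maps and none of the maps for endocytosis, vesicle SNAREs, MAPK signaling, the cell cycle, meiosis, protein processing in the endoplasmic reticulum, the citrate cycle, fatty acid degradation or fatty acid synthesis. Genes with the GO term for intracellular protein transport and genes described as catalase, superoxide dismutase or peroxiredoxin were left out. The maps held 158 genes in all, and 43 of them are not members. The rule itself uses annotation only, and the maps were picked with earlier results of these data known.

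Strain AS2.1557 was grown in YPD medium at 22 °C, and poly(A) RNA was sequenced from cells treated with salicylic acid (SA) at 0.5 mg/L (the S group, 3 libraries), and from cells whose medium received water only (the C group, 3 libraries). SA is a phenolic hormone of plants. Both groups are the same strain and carry no introduced gene. The libraries are called S1 to S3 and C1 to C3. The paper says that its experiments were done in triplicate and does not say that the libraries of a group came from separate cultures. Their spread, on which every p-value here rests, may therefore be technical. The values are FPKM (fragments scaled by gene length and by the library's total of mapped fragments), 1 per gene and library. Levels may be compared between genes, and between libraries only relative to each library's total. The median over the tested genes ran from 23.6 FPKM in C3 to 32 FPKM in S3. Each gene is named by its number in the table and the description the table gives, and its position is on the contigs of that table. The paper names 2 assemblies for this yeast, and which of them the contigs belong to was not settled here.

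Autophagy is the process by which a cell encloses its own cytoplasm in a double membrane and delivers it to the vacuole, the lytic compartment of yeasts. In *Saccharomyces cerevisiae* the TOR kinase restrains it in rich medium, the Atg1 kinase complex starts it, Atg9, Atg2 and a phosphatidylinositol 3-kinase build the membrane, and a pair of ubiquitin-like systems attach Atg8 to lipid. Mitophagy is the selective removal of mitochondria by the same machinery. Peroxisomes are small organelles of fatty acid and hydrogen peroxide metabolism, and the proteins that make them and import their enzymes are called peroxins.

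For some genes the map and the table's description pointed to different functions. A description naming autophagy was found for 11 members, and one naming a peroxin or the peroxisome for 14. Gene 4611, described as a peptidase S33, carried the KEGG orthology entry K08329 that gene 3921, autophagy-related protein 17, also carried. Gene 11613, described as nicotinamide N-methyltransferase-like, shared K13341 with gene 5171, the peroxisomal targeting signal type 2 receptor. Gene 9347, described as an HSP70 chaperone, shared K20179 with gene 8775, the vacuolar sorting protein PEP5/VPS11. Such genes were kept as members because the map put them there. The autophagy map held 55 members, the mitophagy map 27 and the peroxisome map 38, with 5 on both the autophagy and the mitophagy map. The members lay on 13 of the table's 70 contigs, had a median coding length of 1437 bases against 1332 for all tested genes and a median of 8 exons against 7, and none overlapped another gene of the table.

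All 115 members passed the limit of a mean of at least 0.5 FPKM, so none was lost to it. Their mean levels over the 6 libraries ran from 1.76 to 1168 FPKM with a median of 30.02 FPKM, beside a median of 28.5 FPKM over the 6113 genes tested. The typical member was thus transcribed at about the level of the typical gene. Of the members, 16 had a mean under 10 FPKM and 5 a mean over 400 FPKM.

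On the values as deposited, few of them differed between the groups. With limma on log2(FPKM + 0.1) and p-values adjusted over all tested genes, 7 members rose with SA and 1 fell at an adjusted p under 0.05. Of all tested genes 19.9% rose and 3.03% fell, and of the members 6.09% rose and 0.870% fell. The median log2 fold change (S over C) was 0.09 for the members and 0.21 for all tested genes. At an unadjusted p under 0.05, 19 members (16.5%) were higher and 6 (5.22%) lower, beside 32.4% and 5.27% of all tested genes. The counts moved with single libraries: 3 were higher and none lower without S2, 4 higher without C2, 12 higher without C1 and 6 lower without C3. Of all tested genes 4.79% were lower without C3, and their shares under the other omissions are not given here. These moves are therefore not shown to be particular to the members. A share of 69.6% of the members, 80 genes, had a 95% interval of the fold change that lay inside 1.5-fold either way, beside 46.6% of all tested genes, and 6 members had an estimate beyond 1.5-fold. The intervals were taken on the values as deposited, and no share inside 1.5-fold after centring is given here. These shares describe the members beside all genes and were not tested.

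The general shift of this table bears on every one of these values. The table's FPKM were higher in S for most genes, and centring each library on its own median moved the median log2 fold change of all tested genes from 0.21 to -0.07 and that of the members from 0.09 to -0.19. After centring, 7.26% of all tested genes were higher and 15.3% lower, and among the members 2 were higher (1.74%) and 25 lower (21.7%). On that scale the members were thus not called less often than all tested genes. With quantile normalization, which gives every library the same distribution, 6.61% of all tested genes were higher and 8.47% lower. Among the members 2 were then higher (1.74%) and 12 lower (10.4%). The same 2 members, a carnitine acyltransferase and a Sym1 protein, were higher on all 3 scales, and 1, a vacuolar amino acid transporter, was lower on all 3. The other 5 calls were lost under both scalings. FPKM are relative to the library's total, so a change of all transcripts together cannot be told apart from no change.

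**Figure D1:**
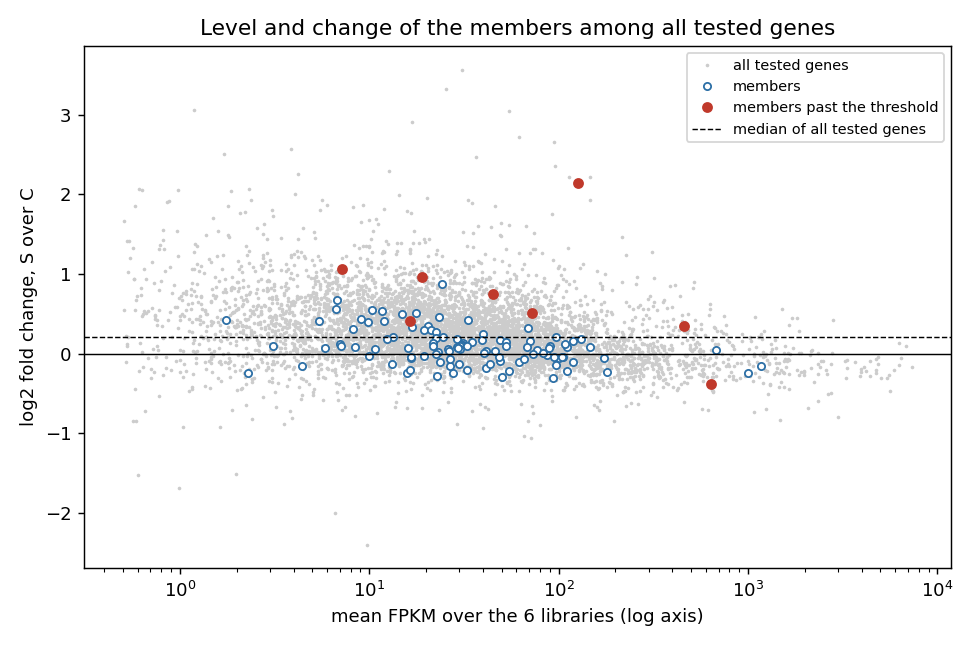
Log2 fold change (S over C, vertical) against the mean FPKM over 6 libraries (horizontal, log axis) for 6113 tested genes (grey dots), the 115 members (open circles) and the 8 members past the threshold (filled circles). Most members lie below the dashed line, the median of all tested genes at 0.21, and 2 lie beyond a log2 fold change of 1.

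Change and level went together in the whole table. The 1414 tested genes under 10 FPKM had a median log2 fold change of 0.36, the 3591 between 10 and 100 FPKM one of 0.23, and the 1108 above 100 FPKM one of -0.02. Members in the same ranges had medians of 0.21 (16 genes), 0.08 (81 genes) and -0.04 (18 genes). In the middle range, which held most members, 4.94% of the members and 23.2% of all genes rose.

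The libraries of the C group were spread widely for these genes. Among the C libraries, C3 was the lowest for 93 members (80.9%), and for 62.2% of all tested genes, and it was the lowest of all 6 libraries for 68 members (59.1%), beside 49.9% of all tested genes. The median member lay 0.20 below its own mean in C3 on the log2 scale, 0.09 above it in C1 and 0.02 above it in C2. In S1, S2 and S3 the median member lay at -0.01, 0.07 and 0.03. The median member was thus higher in C1 than in every S library, whereas the median of all tested genes, at 0.00 in C1 and 0.04 to 0.14 in the S libraries, was not. C1 was the highest of the 6 libraries for 38.3% of the members and 19.5% of all tested genes. Without C3 the members' median log2 fold change was 0.00, with 6 members higher and 6 lower, while 4.79% of all tested genes were then lower.

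**Figure D2:**
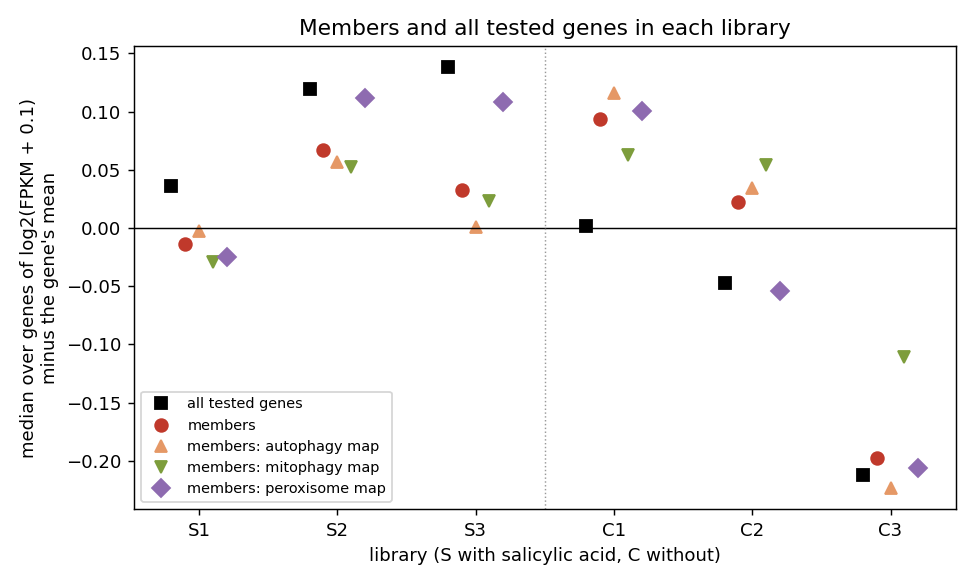
Median over genes of log2(FPKM + 0.1) minus each gene's mean over the 6 libraries, for all tested genes (squares), the 115 members (circles) and the members on each map (triangles and diamonds), by library. The members sit at -0.20 in C3 and at 0.09 in C1, above their values of -0.01, 0.07 and 0.03 in S1, S2 and S3.

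The largest difference was in an enzyme that moves acyl groups. Carnitine acyltransferases transfer acetyl or longer acyl groups between coenzyme A and carnitine, which lets them pass between peroxisome, cytosol and mitochondrion. Gene 3279, carnitine O-acyltransferase CPT2/YAT1 (contig LN483142.1 from 2424617 to 2428401, minus strand, 19 exons), had 147, 124 and 361 FPKM in S (S1 to S3, in this order throughout) and 55.7, 41.9 and 32.7 FPKM in C. Every S library was higher than every C library, and S3 stood well above S1 and S2. The means were 211 ± 131 (SD, n = 3) in S and 43.4 ± 11.6 (SD, n = 3) in C, a log2 fold change of 2.14 with a 95% interval of 1.38 to 2.90, or 4.42-fold (limma, adjusted p = 0.00363). It was called in all 14 alternatives, with adjusted p-values from 0.00125 to 0.0207, and without S3 the log2 fold change was 1.67.

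A second carnitine acyltransferase, gene 6071 (described as CRAT), carries the same orthology entry, K00624. Its values were 20.9, 27.5 and 46.6 FPKM in S and 23.2, 15.5 and 12.1 FPKM in C. The groups overlapped, since S1 lay below C1, and S3 was again the highest library. The log2 fold change of 0.87 (95% interval 0.21 to 1.53) did not pass the threshold (adjusted p = 0.0584, and 0.0129 to 0.199 over the alternatives). It was called without S1 (adjusted p = 0.0308) and in 1 other alternative, without C1 (adjusted p = 0.0129).

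Among the other 13 peroxisomal enzymes, gene 4213, an FAD-dependent oxidoreductase that the table annotates with L-pipecolate oxidase activity, rose slightly. It had 18.5, 18.5 and 19.6 FPKM in S and 14.2, 13.5 and 14.9 FPKM in C, with no overlap and little spread. The log2 fold change was 0.41 ± 0.13 (SE), and the adjusted p of 0.0492 lay just under the threshold. This call was lost in 10 of 14 alternatives, and leaving out any library other than C3 ended it, with adjusted p-values from 0.0733 to 0.168. Gene 12101, which shares its entry K00306, had a log2 fold change of 0.28 (adjusted p = 0.205). Gene 857, a d-aspartate oxidase, and gene 4729, an enoyl-CoA isomerase of unsaturated fatty acid breakdown, were also higher in every S library than in every C library but did not pass (log2 fold changes of 0.40 and 0.44, adjusted p = 0.0858 and 0.0908). Of the 15 enzymes 13 had a positive log2 fold change, as did 4491 of the 6113 tested genes. The threshold was passed by 2 (13.3%, beside 19.9% of all tested genes that rose). The median was 0.29, the highest of the role groups, beside 0.21 for all tested genes. After centring it was 0.02, beside -0.07 for all tested genes. On that scale 1 enzyme was higher (6.67%, beside 7.26% of all tested genes) and none lower, beside 15.3%.

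Proteins of the peroxisomal membrane divided in direction. Gene 1833, protein sym1 (contig LN483142.1 from 263050 to 264672, plus strand, 12 exons), had 10.4, 8.26 and 10.7 FPKM in S and 5.28, 4.41 and 4.17 FPKM in C. All S values exceeded all C values. The means were 9.77 ± 1.32 (SD, n = 3) and 4.62 ± 0.586 (SD, n = 3), a log2 fold change of 1.06 with a 95% interval of 0.64 to 1.48, or 2.09-fold (adjusted p = 0.00565). It was called in all 14 alternatives, with adjusted p-values from 0.00357 to 0.0275. Sym1 belongs to the Mpv17 family, and in *S. cerevisiae* it is a protein of the mitochondrial inner membrane needed for growth on ethanol at high temperature. The table likewise annotates gene 1833 with the mitochondrial inner membrane and ethanol metabolism, although its only map is the peroxisome.

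The other members of this family, which share the entry K13348, are genes 8113 and 421, both described as peroxisomal membrane protein MPV17 and related proteins. Gene 8113 had 7.14, 6.70 and 11.2 FPKM in S and 4.37, 4.70 and 6.31 FPKM in C, without overlap. Its log2 fold change of 0.67 (95% interval 0.14 to 1.21) did not pass (adjusted p = 0.0688, and 0.0483 to 0.410 over the alternatives), and it passed without C3 (adjusted p = 0.0483). Gene 421 was the least steady member. Its values were 12.8, 17.6 and 6.94 FPKM in S and 2.51, 15.2 and 17.2 FPKM in C, so that C1 alone was low, and the 95% interval of its log2 fold change ran from -0.97 to 1.79.

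Both members with the entry K13354, genes 3909 and 7349, described as predicted mitochondrial carrier proteins, were lower in S by mean. Gene 3909 had 75.1, 91.8 and 84.7 FPKM in S and 112, 103 and 96.3 FPKM in C, without overlap (log2 fold change -0.31, adjusted p = 0.0711). Gene 7349 had 41.6, 51.2 and 43.1 FPKM in S and 63.3, 50.7 and 52.4 FPKM in C, with S2 above C2 (log2 fold change -0.29, adjusted p = 0.137). Both passed as lower after centring (adjusted p = 0.00732 and 0.0152) and with quantile normalization (adjusted p = 0.0223 and 0.0291). The ABC transporters of fatty acyl groups, genes 4585 and 6033, had log2 fold changes of 0.21 and 0.07, and gene 6425, peroxisomal membrane protein 4, one of 0.10, with adjusted p-values of 0.342, 0.836 and 0.669.

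None of the 15 peroxins passed the threshold, beside 19.9% of all tested genes that rose and 3.03% that fell. Their log2 fold changes ran from -0.13 to 0.50 with a median of -0.03, and their adjusted p-values (limma) from 0.137 to 0.926. At an unadjusted p under 0.05 the count was 0 as well, beside 32.4% of all tested genes higher and 5.27% lower. After centring 3 peroxins (20%) were lower, beside 15.3% of all tested genes. Gene 121, PEX16, which in human cells acts early in peroxisome formation, was the farthest up at 15.8, 19.4 and 16.8 FPKM in S and 16.4, 13.2 and 8.33 FPKM in C. Its groups overlapped because C1 lay above S1, and its log2 fold change of 0.50 had a 95% interval of -0.01 to 1.01. It passed only without C1 (adjusted p = 0.0297).

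The docking proteins of the import step had narrow intervals. Gene 2773, the peroxisomal membrane anchor protein, had 94.7, 105 and 109 FPKM in S and 112, 99.5 and 105 FPKM in C, and gene 8741, a peroxin of the same docking step by its entry K13344, had 91.3, 94.4 and 96.3 FPKM in S and 98.5, 98.2 and 92.4 FPKM in C. Their 95% intervals were -0.26 to 0.19 and -0.24 to 0.17 on the log2 scale. Gene 5171, the receptor for the type 2 targeting signal, had a log2 fold change of -0.12. Genes 2773, 8741 and 5171 passed as lower after centring (adjusted p = 0.0443, 0.0292 and 0.0381) but not with quantile normalization (adjusted p = 0.237, 0.144 and 0.0517).

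The remaining peroxins named by description did not pass either. Gene 273, a peroxisome assembly factor with an AAA-type ATPase domain, which extracts the used receptor from the membrane, was higher in all S libraries by a narrow margin (8.73 to 9.69 FPKM in S, 6.80 to 8.26 FPKM in C, adjusted p = 0.204). Gene 4283, PEX3, had a log2 fold change of 0.14, and gene 3297, a 40 kDa farnesylated protein associated with peroxisomes, one of 0.06. The ubiquitin ligases of receptor recycling, gene 3219 and gene 10291 (peroxin-10), had 0.03 and 0.08. Gene 6967, a peroxin with 61.1 to 67.4 FPKM in S and 62.2 to 71.04 FPKM in C, had -0.06.

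Within autophagy, the gene with the entry of Atg8 was the most transcribed of the conjugation machinery. Atg8 is the small ubiquitin-like protein that is attached to phosphatidylethanolamine on the growing membrane. Gene 3389, described as a symbiosis-related protein with entry K08341 (contig LN483143.1 from 7696 to 9259, minus strand, 9 exons), had 570.1, 553 and 427 FPKM in S and 404, 398 and 402 FPKM in C. The C libraries were nearly equal, S1 and S2 were clearly higher, and S3 was only slightly higher. The means were 517 ± 78.1 (SD, n = 3) and 401 ± 3.13 (SD, n = 3), a log2 fold change of 0.35 with a 95% interval of 0.11 to 0.60, or 1.28-fold (adjusted p = 0.0428). The call held in 5 of 14 alternatives, with adjusted p-values from 0.0137 to 0.720. It was lost without S1 (0.127), S2 (0.153), C1 (0.0511), C2 (0.109) or C3 (0.0805), and after centring the log2 fold change was 0.08. Of the 296 tested genes that, like it, had a mean over 400 FPKM, 8.78% rose and 25.0% fell.

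The other conjugation genes did not pass. Gene 6921, the apg12-domain-containing protein, had 15.5, 10.9 and 15.2 FPKM in S and 11.2, 9.32 and 7.94 FPKM in C, and gene 11559, autophagy-related protein 16, had 19.4, 18.5 and 24.3 FPKM in S and 17.0, 16.7 and 10.4 FPKM in C. In *S. cerevisiae* Atg12 and Atg16 act together with Atg5 to place Atg8 on the membrane. Their log2 fold changes were 0.54 and 0.52 (adjusted p = 0.0721 and 0.0944), and both passed only without C1 (adjusted p = 0.0352 and 0.0469). Gene 1795, a protein involved in autophagy and nutrient starvation with the entry of Atg5, went the other way by mean, with 25.3, 24.5 and 25.6 FPKM in S and 32.7, 32.5 and 25.0 FPKM in C. S was tightly grouped while C3 lay far below C1 and C2. Its log2 fold change of -0.25 had an adjusted p of 0.223, and it passed as lower after centring (adjusted p = 0.0146), with quantile normalization (adjusted p = 0.0207) and without C3. Over its alternatives the adjusted p ran from 0.0146 to 0.505.

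Gene 3517, the cysteine protease Apg4p/Aut2p that trims Atg8, had a log2 fold change of -0.13. Gene 2553, autophagy-related protein 3, and gene 10719, a protein involved in autophagocytosis during starvation, have entries of the conjugating enzymes of the ubiquitin-like systems and had 0.21 and 0.04. Gene 10719 shows how C3 widened the C group, with 55.5, 50.3 and 32.8 FPKM in C beside 42.7, 51.6 and 45.1 FPKM in S. Gene 10367, the E1-like activating enzyme, had 0.01.

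No member of the Atg1 kinase complex and its partners passed, beside 19.9% of all tested genes that rose and 3.03% that fell. The 5 members had log2 fold changes from -0.04 to 0.19, adjusted p-values (limma) from 0.486 to 0.963 and 95% intervals between -0.41 and 0.59. At an unadjusted p under 0.05 the count was 0, beside 32.4% of all tested genes higher and 5.27% lower. Each of the 5 had its lowest value of all 6 libraries in C3, as 49.9% of all tested genes did. Gene 9341, the phosphoprotein of cytoplasm to vacuole targeting and autophagy, had 30.8, 29.5 and 31.7 FPKM in S and 33.7, 28.9 and 19.96 FPKM in C. Gene 3921, autophagy-related protein 17, a scaffold of the complex, had 9.32, 8.47 and 7.996 FPKM in S and 7.85, 10.9 and 6.10 FPKM in C. Gene 8971, autophagy-related protein 11, the scaffold of selective autophagy, had 38.0, 43.0 and 39.4 FPKM in S and 46.3, 41.8 and 32.6 FPKM in C. In each of these 3 genes the S values fell within the range of the C values. After centring, 1 of the 5 (20%, beside 15.3% of all tested genes), the Atg1-type kinase gene 1961, passed as lower (adjusted p = 0.035). The group's median log2 fold change was then -0.27, beside -0.07 for all tested genes.

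The 9 genes of the membrane-building group gave no call with limma, beside 19.9% of all tested genes higher and 3.03% lower. At an unadjusted p under 0.05, 2 (22.2%) were higher, beside 32.4% of all tested genes. Gene 10679, the apg9-domain-containing protein, the transmembrane lipid scramblase of the process, had 16.3, 16.3 and 16.4 FPKM in S and 19.7, 17.3 and 14.0 FPKM in C (log2 fold change -0.04, adjusted p = 0.867). Gene 563, a Beclin-like protein of the phosphatidylinositol 3-kinase complex, had 7.27, 7.01 and 9.47 FPKM in S and 6.998, 4.98 and 4.26 FPKM in C. Its S2 exceeded C1 by a hair, and its log2 fold change of 0.56 (95% interval 0.06 to 1.06) had an adjusted p of 0.0986, which passed without C1 (0.0303). Gene 9925, autophagy-related protein 27, had 0.14.

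Of the 12 members grouped as TOR and nutrient signalling, upstream of autophagy, 1 rose (8.33%, beside 19.9% of all tested genes) and none fell. Gene 10579, a ser thr protein kinase (contig LN483332.1 from 841571 to 844669, plus strand, 8 exons) that the table annotates with the response to glucose starvation and with negative regulation of TORC1, had 80.3, 50.4 and 40.4 FPKM in S and 30.9, 35.9 and 31.0 FPKM in C. No S value fell in the range of C, and the S libraries differed from each other by more than S3 differed from C. The means were 57.1 ± 20.8 (SD, n = 3) and 32.6 ± 2.90 (SD, n = 3), a log2 fold change of 0.75 with a 95% interval of 0.27 to 1.23 (adjusted p = 0.0331). The call held in 6 of 14 alternatives, with adjusted p-values from 0.0220 to 0.186, and was lost without S1 (0.0681), S2 (0.0679), C2 (0.0545) or C3 (0.0890). Without S1 the log2 fold change was 0.47.

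Gene 2203, a TOR kinase gene whose entry K07203 is also carried by gene 6987, had 172, 176 and 163 FPKM in S and 187, 178 and 166 FPKM in C. The 95% interval of its log2 fold change was -0.26 to 0.15. Its ratio to gene 6987 is given below. Gene 7743, a protein phosphatase 2A-associated protein, had 10.2, 12.8 and 13.6 FPKM in S and 11.7, 7.80 and 6.22 FPKM in C, with S1 inside the C range. Its log2 fold change of 0.54 had an adjusted p of 0.118 and passed without C1 (0.0181). Gene 11015, described as a cyclin, was the third most transcribed member and hardly differed (677, 702 and 694 FPKM in S, 627, 692 and 697 FPKM in C). Of the 16 members described as kinases or phosphatases, on any map, 2 rose (12.5%, beside 19.9% of all tested genes) and none fell. After centring none was higher, beside 7.26% of all tested genes, and 3 were lower (18.8%, beside 15.3%).

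At the vacuole, the most transcribed members were 2 proteases and a transporter, whose means were lower in S. The other 3 members of this role were divided. The alpha beta-hydrolases, genes 6529 and 245, had log2 fold changes of 0.21 and 0.17 (adjusted p = 0.302 and 0.309), gene 245 with every S library above every C library, and gene 2457, of the major facilitator superfamily, had -0.24 (adjusted p = 0.515). Gene 4177, vacuolar amino acid transporter 3 (contig LN483157.1 from 335493 to 338373, plus strand, 6 exons), was the only member that fell. Such transporters move amino acids across the vacuolar membrane. It had 603, 534 and 534 FPKM in S and 712, 737 and 713 FPKM in C, with a gap between the groups wider than the spread of either. The means were 557 ± 39.8 (SD, n = 3) and 721 ± 14.4 (SD, n = 3), a log2 fold change of -0.37 with a 95% interval of -0.55 to -0.20 (adjusted p = 0.0104). It was called in 12 of 14 alternatives, with adjusted p-values from 0.00898 to 0.0502, and was lost without S2 (0.0502) and without the trend.

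Gene 4637, an aspartic peptidase a1, and gene 12499, a serine-type endopeptidase, were the most transcribed of all members. Their entries, K01381 and K01336, are those of the vacuolar proteinases A and B of *S. cerevisiae*, which break down what autophagy delivers. Gene 4637 had 1154, 1154 and 1006 FPKM in S and 1292, 1215 and 1186 FPKM in C. Gene 12499 had 968, 927 and 867 FPKM in S and 1176, 1118 and 969 FPKM in C. Neither pair of groups overlapped, although for gene 12499 S1 and C3 nearly met. The log2 fold changes were -0.16 and -0.24, and neither passed (adjusted p = 0.171 and 0.0773). Both passed as lower after centring (adjusted p = 0.0269 and 0.0145) but not with quantile normalization (adjusted p = 0.438 and 0.214), and gene 12499 also passed without C3. Of all tested genes over 400 FPKM 25.0% fell, with a median log2 fold change of -0.10, so abundant genes in general lay lower than the rest.

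The proteins that tether and fuse membranes at the vacuole did not pass in either direction. Their 11 log2 fold changes lay between -0.24 and 0.15 with adjusted p-values (limma) from 0.242 to 0.994. At an unadjusted p under 0.05, 0 passed, beside 32.4% of all tested genes higher and 5.27% lower. After centring 3 (27.3%) were lower, beside 15.3% of all tested genes. In all 11, C3 was the lowest C library, and in 9 it was the lowest of the 6, which among all tested genes it was for 49.9%.

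On the mitophagy map 3 of 27 members rose (11.1%, beside 19.9% of all tested genes), the Atg8 gene among them. After centring none was higher and 9 (33.3%) were lower, beside 15.3% of all tested genes. Gene 9881, a hypothetical protein of 3 exons (contig LN483326.1 from 394145 to 394727, plus strand), had 21.8, 27.5 and 26.1 FPKM in S and 12.1, 9.83 and 17.3 FPKM in C. The lowest S value was above the highest C value. The means were 25.1 ± 3.00 (SD, n = 3) and 13.1 ± 3.84 (SD, n = 3), a log2 fold change of 0.97 with a 95% interval of 0.51 to 1.43 (adjusted p = 0.0108). It was called in 12 of 14 alternatives, with adjusted p-values from 0.00689 to 0.0795, and lost under centring (0.0546) and quantile normalization (0.0795).

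Gene 10127, a CK2 protein kinase (contig LN483332.1 from 114930 to 117374, plus strand, 14 exons), had 74.7, 95.3 and 86.3 FPKM in S and 60.6, 63.3 and 55.5 FPKM in C. CK2 is a constitutive serine and threonine kinase, and in *S. cerevisiae* it phosphorylates the mitophagy receptor Atg32. The groups did not overlap, and the means of 85.4 ± 10.3 (SD, n = 3) and 59.8 ± 3.96 (SD, n = 3) gave a log2 fold change of 0.51 with a 95% interval of 0.24 to 0.78 (adjusted p = 0.0157). The call held in 10 of 14 alternatives, with adjusted p-values from 0.0150 to 0.108, and was lost without S2 (0.0809) or S3 (0.0620) and under both scalings. The regulatory beta chains, genes 8073 and 133, had log2 fold changes of 0.05 and 0.15 (adjusted p = 0.827 and 0.410).

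Of the 22 members grouped as mitophagy map proteins, 14 had a positive log2 fold change and 8 a negative one, with a median of 0.09. Without overlap, 4 (18.2%) were higher in S and 3 (13.6%) lower, beside 36.1% and 7.48% of all tested genes. Small but even steps went both ways. Gene 8195, mitochondrial fission 1 protein, was higher, with 140 to 141 FPKM in S and 121 to 125 FPKM in C (log2 fold change 0.19, limma, adjusted p = 0.137). Other genes were lower. Genes 3023 and 681, both described as the catalytic subunit of mitochondrial DNA polymerase gamma, had 102 to 103 FPKM in S against 116 to 124 FPKM in C and 20.3 to 21.2 FPKM in S against 24.6 to 25.5 FPKM in C. Neither overlapped, and neither passed on the values as deposited (log2 fold changes -0.21 and -0.28, adjusted p = 0.112 and 0.123). Both passed as lower after centring (0.0101 and 0.0110) and with quantile normalization (0.0286 and 0.0139). These genes were among the 11 members that were lower under both scalings, whose log2 fold changes as deposited lay between -0.37 and -0.15. After centring 21.7% of the members were lower, beside 15.3% of all tested genes. With quantile normalization it was 10.4%, beside 8.47%. The share of all tested genes lower under both scalings is not given here. The 11 also hold the amino acid transporter, both K13354 carriers, the Atg5 gene, the WD40 gene 11823, a mitochondrial outer membrane protein (gene 7621) and the vacuolar sorting genes 9997, 6523 and 8979. In 5 of the 11 the groups did not overlap, a count among genes already picked as lower. These genes beyond the naming rule were chosen after their values were seen.

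**Figure D3:**
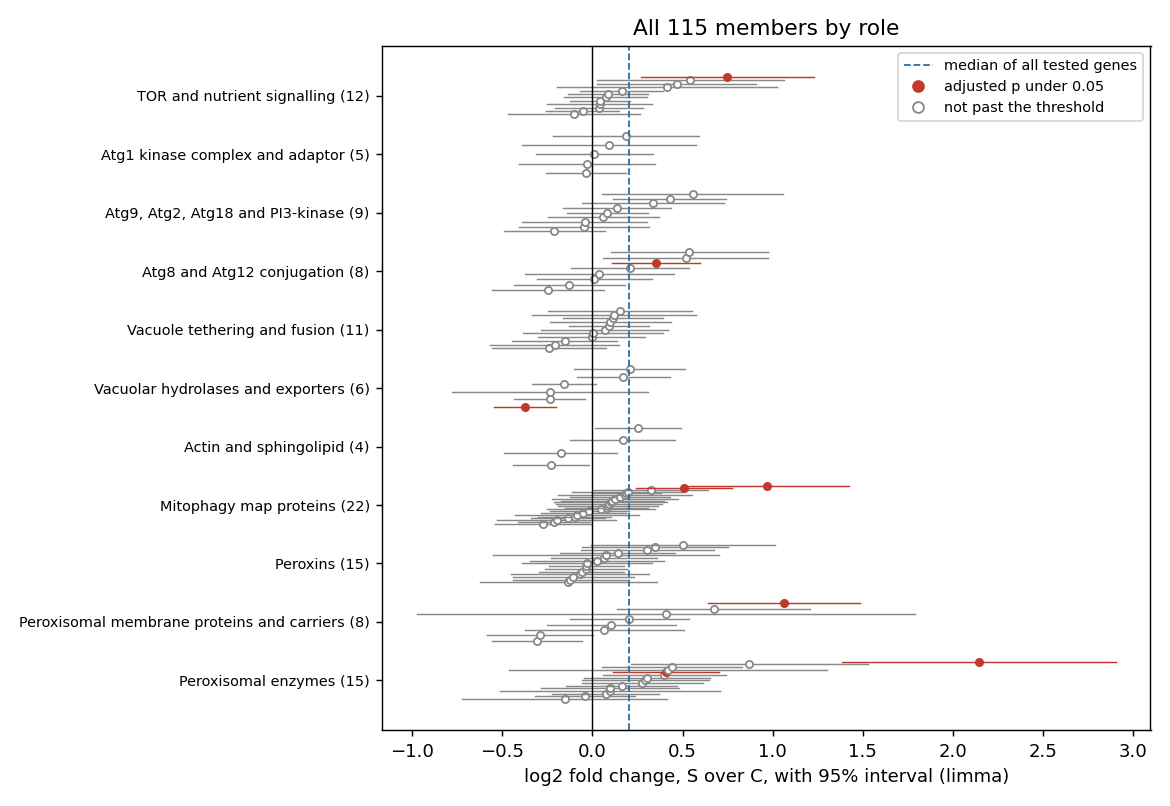
Log2 fold change (S over C) of all 115 members with its 95% interval from limma, by role, with the number of members of each role in parentheses. Filled points passed an adjusted p of 0.05, and the dashed line is the median of all tested genes at 0.21. The peroxins (15) and the Atg1 group (5) hold no filled point, and the point at 2.14 is carnitine acyltransferase gene 3279.

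Values without overlap between the groups were a further description. All S libraries exceeded all C libraries in 22 members (19.1%), beside 36.1% of all tested genes, and all lay below in 9 members (7.83%), beside 7.48% of all tested genes.

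**Figure D4:**
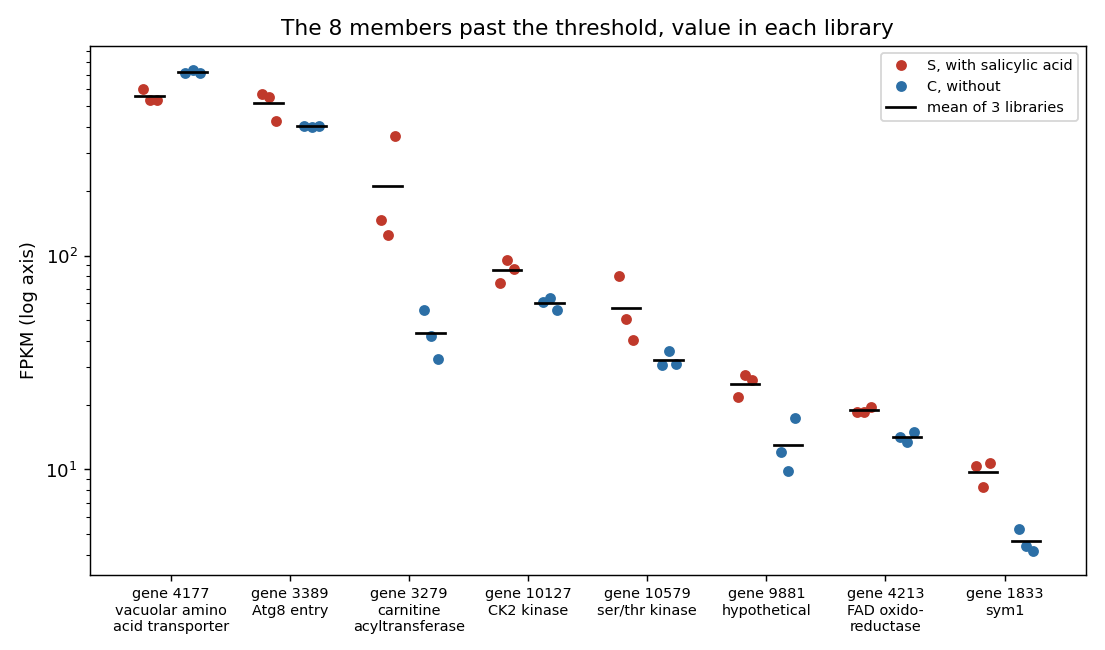
FPKM in each library (log axis) of the 8 members past the threshold, ordered by mean level, with S in red, C in blue and the mean of 3 libraries as a bar. Gene 4177 is the only one with S below C, and gene 3279 shows the widest gap, from 124 to 361 FPKM in S against 32.7 to 55.7 FPKM in C.

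Several orthology entries were held by more than 1 member, and the share that each gene took of its pair could be compared within a library, where a scaling of the whole library cancels. The 115 members had 93 entries, of which 20 were shared by 42 genes, in 24 pairs. This comparison was chosen after the values were seen. The log2 ratio of the pair had no overlap between the groups in 5 of the 24 pairs. Pairs of genes outside the members were not compared, so this count has no share of the whole table beside it. With 3 libraries against 3, the smallest p of a two-sided exact permutation test is 0.10, which all 5 reached and which is 0.48 after adjustment over 24 pairs, so this design could not pass the threshold. How alike the sequences of each pair are, and so whether reads could be divided between them, was not analysed here.

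The widest shift was in the carnitine acyltransferases. Gene 3279 exceeded gene 6071 by 2.81, 2.17 and 2.95 on the log2 scale in S and by 1.26, 1.43 and 1.43 in C, a difference of 1.27 between the means. In the remaining 4 pairs the gene with the higher level took less of the pair in S. Over all tested genes the median log2 fold change also fell with level, from 0.36 under 10 FPKM to -0.02 above 100 FPKM. Whether the pairs follow that trend was not tested. For the WD40 genes of entry K17908, gene 11823 exceeded gene 7719 by 0.36, 0.54 and 0.36 in S and by 1.14, 0.92 and 1.12 in C. Gene 7719 was higher in S (36.9, 37.0 and 39.6 FPKM against 29.9, 31.7 and 23.3 FPKM) and lay just outside the threshold (adjusted p = 0.0525), while gene 11823 had 47.5, 53.8 and 50.7 FPKM against 66.0, 60.1 and 50.8 FPKM.

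The CK2 pair behaved alike. Gene 10079, a pkinase-domain-containing protein with the same entry as gene 10127, exceeded it by 0.33, 0.14 and 0.17 in S and by 0.87, 0.70 and 0.74 in C, so that the pair was nearly level in S. Gene 10079 itself had 93.8, 105 and 97.0 FPKM in S and 111, 103 and 92.9 FPKM in C (adjusted p = 0.764). Gene 5171 over gene 11613, of entry K13341, had log2 ratios of 0.39, 0.38 and 0.20 in S and 0.81, 0.60 and 0.97 in C. The TOR kinase gene 2203 over gene 6987, of entry K07203, had 1.27, 1.14 and 1.17 in S and 1.44, 1.40 and 1.40 in C, a small but even step.

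**Figure D5:**
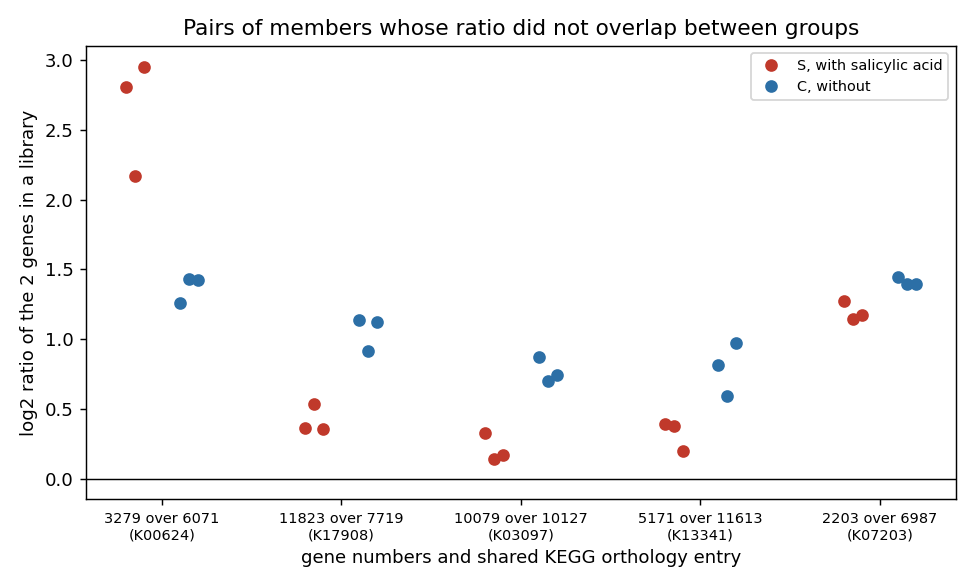
Log2 ratio of the levels of 2 members with the same orthology entry within each library, for the 5 of 24 pairs whose ratio did not overlap between S (red) and C (blue). Gene 3279 over gene 6071 lies between 2.17 and 2.95 in S and between 1.26 and 1.43 in C, and the other 4 ratios are lower in S.

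Of the 43 genes of the same maps that are not members, 42 were tested. Of these 5 rose (11.9%, beside 19.9% of all tested genes), 1 fell (2.38%, beside 3.03%) and the median log2 fold change was 0.00. After centring 1 was higher (2.38%, beside 7.26% of all tested genes) and 16 were lower (38.1%, beside 15.3% of all tested genes and 21.7% of the members). On the autophagy map 2 of 20 rose and none fell, on the mitophagy map none of 9 passed, and on the peroxisome map 3 of 14 rose and 1 fell. The 3 that rose on the peroxisome map were genes of peroxide removal that the choice of members leaves out by name. Gene 11321, a catalase, had a mean of 48.9 FPKM in S and 31.5 FPKM in C (log2 fold change 0.63, adjusted p = 0.0065). The one that fell was gene 1265, an acetyl-c-acyltransferase, with a mean of 187 FPKM in S and 231 FPKM in C (log2 fold change -0.30, adjusted p = 0.0394). That call was lost without S1 (0.110), S2 (0.0862), S3 (0.113), C1 (0.0859) or C2 (0.115).

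Outside the maps, 6 genes were described with a peroxin or peroxisomal name, and 2 of them rose (33.3%, beside 19.9% of all tested genes). Both had a mean under 10 FPKM, a range in which 17% of all tested genes rose, with a median log2 fold change of 0.36. Gene 5089, a peroxisomal NUDIX hydrolase, had a mean of 8.17 FPKM in S and 3.94 FPKM in C (log2 fold change 1.04, adjusted p = 0.00792). Gene 9489, peroxisomal biogenesis factor 11, a family known in yeasts for the division of peroxisomes, had a mean of 4.96 FPKM in S and 2.33 FPKM in C (log2 fold change 1.04, adjusted p = 0.0285). Gene 5089 was still higher after centring (adjusted p = 0.0146) and without each library in turn. Gene 9489 lost its call after centring (0.0563), with quantile normalization (0.0795) and without S2 (0.117), S3 (0.10025), C2 (0.0763) or C3 (0.0715).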

How the data were processed

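Poly(A) RNA of 6 *P. rhodozyma* libraries (S1 to S3 with SA, C1 to C3 without) was analysed. The FPKM were computed by the authors with StringTie, after read cleaning with fastp and alignment with HISAT2 (no versions are given in the sources used here). They were deposited as 1 table. A column of coding length is given there by the authors as another kind of value and was used for description. The same table holds the authors' fold change, its log2, p-value, q-value and calls, which were not used. The number of per-sample columns left aside was 0. Read counts are not in the FPKM and could not be recovered: at the best of the depths tried in each library, 16.4% to 25.0% of low values came within 0.05 of a whole read, where chance gives 10% at a depth fixed beforehand. The paper gives valid reads per library, but the reads behind a gene's value are unknown, so no counting interval is given. The library protocol marks strand.

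Groups were taken from the sample labels. Log2(FPKM + 0.1) was fitted with limma 3.58.1 (R 4.3.3, mean-variance trend) to the 6113 genes whose mean reached 0.5 FPKM, S against C, two-sided, adjusted by Benjamini-Hochberg, called at 0.05. The study's methods name an F-test from a package for counts, and limma's linear model on the log scale was used here since the values are FPKM. Fold changes on this scale understate those of low genes. The fit was tested on simulated data. Named are every called member, the 5 uncalled members with the largest log2 fold change, the 5 most transcribed, and those with autophagy or peroxin descriptions, and others were named after their values were seen. The members and lists were chosen with earlier results of these data known, and the roles were assigned by hand after the values were seen. Alternatives were the pseudocount (1 and 0.01), the limit (none and 1 FPKM), median centring, quantile normalization, a replicate block, no trend and leaving out each library. Ratios of pairs were compared with exact permutation tests (scipy 1.17.1), and figures drawn with matplotlib 3.10.9. No sequences were printed because none of these genes' sequences was at hand.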

Additional observations from a re-analysis of the deposited data

How the results depend on the processing

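The 7 members higher and 1 lower in S became 2 and 25 after median centring and 2 and 12 with quantile normalization, and the members' median log2 fold change moved from 0.09 to -0.19 and -0.16. Without the limit on low values 4 were higher, and without the trend 0 were lower by limma (3 at an unadjusted p under 0.05). Leaving out each library gave 3 (without S2) to 12 (without C1) higher, 0 (without S2, 4 at an unadjusted p under 0.05) to 6 (without C3) lower, and medians from 0.00 to 0.13. Apart from the 4.79% lower without C3, shares of all tested genes under these omissions are not given. The fit with the replicate number as a block gave 6 higher, 1 lower and a median of 0.09. The deviations of libraries with the same number had correlations of -0.02, 0.16 and 0.00. Those of libraries with different numbers had correlations from -0.12 to 0.09. With 3 libraries a group, these values cannot decide whether the numbers pair the libraries. The pseudocounts, the limit of 1 FPKM and the block kept both counts within 1.5 times. None of the 8 called members changed direction in these alternatives. Of the 39 members named by rule 17, all uncalled, changed sign in at least 1 alternative and in at most 5. The causes of these changes were not tested. With 3 libraries a group, a member that did not pass is not shown to be unchanged.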
